A study of Mus musculus with 12 samples.

Results

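Cadherins are membrane proteins that bind their like on a neighbouring cell through calcium-bound outer domains. The genes described here are the protein-coding mouse genes whose symbol is Cdh or Pcdh with a number, or Pcdha, Pcdhb or Pcdhg with the label of a cluster gene. There were 91 of them among 48709 counted gene identifiers. By symbol, 23 are Cdh genes, 11 are Pcdh genes outside the clusters, 14 belong to the Pcdha cluster, 22 to the Pcdhb cluster and 21 to the Pcdhg cluster. Besides these, a gene with a fitting symbol, Pcdhgb8, is annotated as a polymorphic pseudogene and was not included.

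Classical cadherins such as Cdh2 (N-cadherin) hold cells together by tying the membrane to actin through catenins, and the cadherins that a neural cell makes help set which cells it adheres to. The Pcdh genes outside the clusters, most of them delta-protocadherins, adhere more weakly and act in axon growth, cell sorting and synapse formation. The clustered protocadherins lie side by side on chromosome 18. Each of their variable exons has its own promoter; the chosen Pcdha or Pcdhg exon is joined to exons shared by its cluster, whereas Pcdhb genes have no shared exons. Neurons choose among these promoters partly at random, which gives them different surface codes, while the C-type genes at the end of the Pcdha and Pcdhg clusters are used more uniformly.

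RNA was sequenced from cells of C57BL/6 mouse hypothalami of embryonic day 18 that had been grown for a week as neurospheres, floating balls of neural cells, with basic fibroblast growth factor at 10 ng/ml. A reporter virus was added to each culture (multiplicity of infection 10), and sorting gave 4 groups of 3 libraries. The mCherry-positive and mCherry-negative cells came from cultures given an adeno-associated virus whose mCherry marks Hcrt (hypocretin) cells, and the EGFP-positive and EGFP-negative cells from cultures given a lentivirus whose EGFP marks MCH (melanin-concentrating hormone, gene Pmch) cells. All groups therefore went through infection, culture and sorting, and the labels name neither the promoter that drives each reporter nor whether replicates are separate cultures. The cDNA was made from 0.8 ng of RNA for the mCherry sort and from 2 ng for the EGFP sort.

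Libraries held 16.3 to 32.9 megareads in genes, and the 91 genes together took 0.130% to 0.217% of them. Hcrt had 3 to 14 reads in mCherry-positive libraries, against 1 to 5 reads in mCherry-negative libraries, so the hormone that defines the mCherry sort was near the detection limit in every group. Pmch had 278 to 539 reads in EGFP-positive libraries, against 80 to 132 reads in EGFP-negative libraries. All groups held transcripts of several cell types. The summed level of 6 neuron markers was 717 to 1729 CPM over the 12 libraries, and that of 6 astrocyte markers 4315 to 18576 CPM (CPM, reads per megaread in genes, here scaled with TMM factors over all 12 libraries). Pituitary markers summed to 8.98, 2191 and 4959 CPM in the mCherry-positive libraries, and microglial markers were highest in mCherry-positive library 1, at 572 CPM, so the replicates of that group were not alike. In whole samples, fewer cells of a type and less RNA per cell cannot be told apart.

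Levels of the cadherin genes differed widely, from no read to the level of Cdh2, the most abundant by reads. Of the 91 genes, 42 averaged at least 10 CPM and 68 had at least 10 reads in every library. Cdh16 and Pcdhga10 had no read in any library, and Pcdh12 had 5 reads in all. The Pcdh genes outside the clusters were the most evenly detected class, with 10 of 11 at a mean of at least 10 CPM, followed by Pcdhg with 16 of 21, Cdh with 9 of 23, Pcdhb with 6 of 22 and Pcdha with 1 of 14.

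Per length, the gene of highest mean level over the 12 libraries was Pcdhgc3 at 43.0 CPM per kilobase. It was followed by Pcdh9 at 25.03, Cdh2 at 24.0, Cdh4 at 18.1 and Pcdh8 at 13.2 CPM per kilobase. Next came Pcdhgb6 at 12.9, Pcdhgc4 at 12.7 and Cdh11 at 11.7 CPM per kilobase. These lengths count only exonic bases that no other counted gene shares. That choice matters in the clusters, where shared exons leave Pcdha genes 7.004% to 51.4% and Pcdhg genes 0% to 68.5% of their exonic bases, while 19 of 22 Pcdhb and 22 of 23 Cdh genes share none. With all exonic bases, Pcdhgc3 stood at 14.2 CPM per kilobase, below Pcdh9. Pcdhga10, which has no unshared base, could not receive an unambiguous read, so its 0 reads say nothing of its expression, and levels of Pcdha and Pcdhg genes come from their variable exons. The symbol Pcdha11 is carried by 2 identifiers, shown apart in the plot of the clusters.

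**Figure D1:**
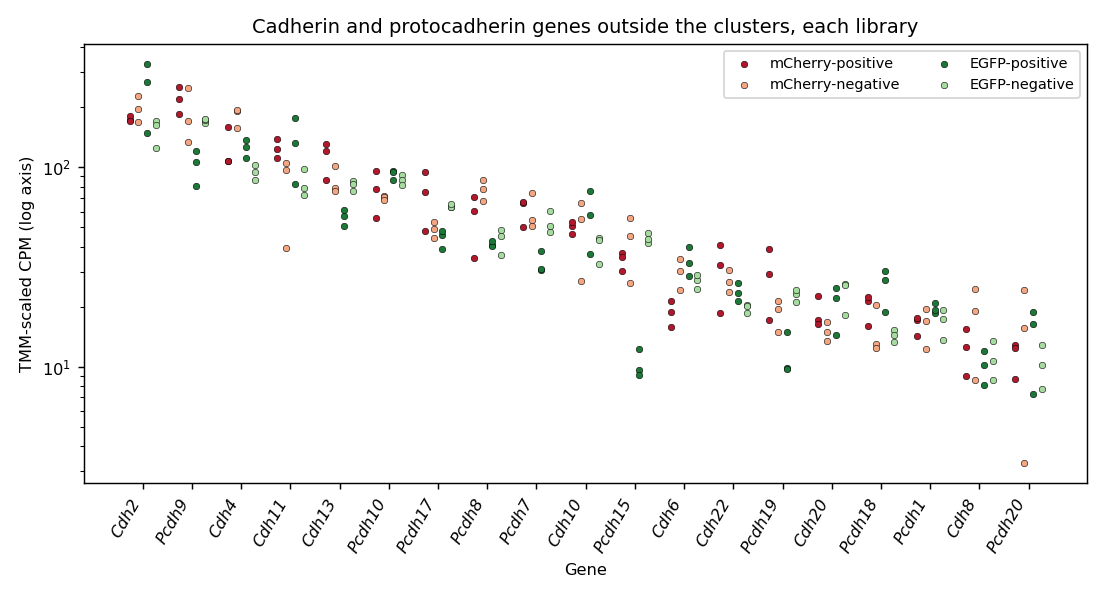
Level in each library (TMM-scaled CPM, log axis) of the 19 Cdh and Pcdh genes outside the clusters with a mean of at least 10 CPM, in order of their mean; each point is 1 library. Pcdh15 stands out by its 3 EGFP-positive libraries at 9.05 to 12.3 CPM, all below the 9 other libraries at 26.1 CPM or more.

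The comparison of EGFP-positive with EGFP-negative cells asks how MCH-reporter cells differ from the cells they were sorted from. Of 10 tested protocadherins outside the clusters, 5 fell: Pcdh15, Pcdh19, Pcdh9, Pcdh7 and Pcdh17 were lower in EGFP-positive cells, by 0.55 to 2.12 on the log2 scale, together with T-cadherin Cdh13 and the cluster genes Pcdhb9 and Pcdhb10. Cdh26, Cdh19, Pcdhgc5 and Pcdh18 rose. In all, 12 of 79 genes tested were called at an adjusted p under 0.05 (edgeR's quasi-likelihood test, Benjamini-Hochberg over 16326 genes), 4 higher and 8 lower. That is 15.2%, near the background of 16.1% over all genes (8.99% higher and 7.07% lower). At an unadjusted p under 0.05, 19 of the 79 had passed, against 30.5% of all genes. By class, the calls were 6 of 10 Pcdh genes, 3 of 17 Cdh, 2 of 21 Pcdhb, 1 of 20 Pcdhg and 0 of 11 Pcdha genes (0 also at an unadjusted p under 0.05 and by DESeq2 and limma-voom).

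Pcdh15, on chromosome 10 at 73099342 to 74649737 (GRCm38, + strand), encodes an atypical cadherin of the tip links of hair cells, and in the brain its transcript is known from oligodendrocyte precursors. It was at 9.61, 9.05 and 12.3 CPM in EGFP-positive libraries, against 47.0, 41.9 and 43.8 CPM in EGFP-negative libraries. The groups do not overlap, and the EGFP-positive libraries lie far below the EGFP-negative ones. The log2 fold change was -2.12 ± 0.17 (SE; adjusted p = 1.9e-04, edgeR), lower in 3 of 3 libraries, the largest fall of any cadherin gene called. Beside it, the summed level of 6 oligodendrocyte-lineage markers was 1396 to 1440.3 CPM in EGFP-positive libraries, against 4137 to 4334 CPM in EGFP-negative libraries, with 6 of 6 markers called lower. The part of these cells in the Pcdh15 change was not tested.

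The 4 other protocadherins outside the clusters that fell did so by less. Pcdh19, an X-linked protocadherin whose human counterpart is mutated in an epilepsy of girls, had 14.9, 9.88 and 9.72 CPM in EGFP-positive libraries, against 21.2, 23.1 and 24.1 CPM in EGFP-negative libraries (log2 fold change -1.01 ± 0.20, SE, adjusted p = 0.0089, edgeR). Its groups do not overlap, and EGFP-positive library 1 lies nearest to the negative cells. Pcdh9, the protocadherin of highest level per length outside the clusters, had 80.5, 106 and 121 CPM in EGFP-positive libraries, against 168, 173 and 175 CPM in EGFP-negative libraries (-0.76 ± 0.15, adjusted p = 0.0094, edgeR).

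Pcdh7 had 37.8, 30.6 and 30.7 CPM in EGFP-positive libraries, against 47.2, 50.9 and 60.5 CPM in EGFP-negative libraries (log2 fold change -0.70 ± 0.15, SE, adjusted p = 0.0143, edgeR). Pcdh17, which acts in axon growth and at synapses, had 39.0, 45.7 and 47.9 CPM in EGFP-positive libraries, against 63.5, 63.4 and 65.6 CPM in EGFP-negative libraries (-0.55 ± 0.13, adjusted p = 0.0187). In each of Pcdh7, Pcdh9 and Pcdh17 all EGFP-positive libraries lie below all EGFP-negative ones. Neuron markers moved the same way beside them: their summed level was 717 to 1025 CPM in EGFP-positive libraries, against 1069.6 to 1129 CPM in EGFP-negative libraries, with 4 of 6 called lower, and their part was not tested.

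Cdh13, T-cadherin, lacks a cytoplasmic tail and is held in the membrane by a lipid anchor. It had 50.9, 56.7 and 60.9 CPM in EGFP-positive libraries, against 85.0, 83.0 and 76.0 CPM in EGFP-negative libraries (log2 fold change -0.55 ± 0.12, SE, adjusted p = 0.0166, edgeR). In the Pcdhb cluster, Pcdhb9 averaged 10.4 ± 2.0 CPM in EGFP-positive and 17.99 ± 1.3 CPM in EGFP-negative libraries, and Pcdhb10 averaged 4.83 ± 0.83 CPM in EGFP-positive and 9.93 ± 1.60 CPM in EGFP-negative libraries (SD, n = 3 each). These Pcdhb changes were -0.80 ± 0.19 and -1.05 ± 0.22 on the log2 scale, with adjusted p of 0.0184 and 0.0116 (edgeR), again without overlap. Beside all of these falls, markers of other cells were also lower in EGFP-positive libraries. Pituitary markers summed to 30.1 to 52.8 CPM in EGFP-positive libraries, against 339.9 to 442 CPM in EGFP-negative libraries (4 of 5 tested called lower). Mural and meningeal markers summed to 62.6 to 95.2 CPM in EGFP-positive libraries, against 299 to 332 CPM in EGFP-negative libraries (4 of 6 lower and 2 higher), and microglial markers to 6.89 to 8.38 CPM, against 25.4 to 38.9 CPM (5 lower and 1 higher). Epithelial markers were low in both groups, at 4.31 to 4.96 CPM in EGFP-positive and 10.5 to 15.1 CPM in EGFP-negative libraries. The part of these cells was not tested.

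Pcdhgc5, the last gene of the Pcdhg cluster and one of its C-type genes, had 19.97, 39.0 and 42.4 CPM in EGFP-positive libraries, against 13.1, 13.01 and 11.6 CPM in EGFP-negative libraries. The groups do not overlap, although EGFP-positive library 1 lies nearer to the negative cells than to the other EGFP-positive libraries. Its log2 fold change was 1.41 ± 0.26 (SE, adjusted p = 0.0073, edgeR). The neighbouring C-type genes differed less: Pcdhgc3 averaged 98.8 ± 25.6 CPM in EGFP-positive and 79.5 ± 7.9 CPM in EGFP-negative libraries (SD, n = 3 each, adjusted p = 0.34), and Pcdhgc4, which in mice protects neurons from cell death, averaged 40.8 ± 5.8 CPM in EGFP-positive and 40.3 ± 2.8 CPM in EGFP-negative libraries (adjusted p = 0.995).

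Pcdh18, a delta-protocadherin, was the Pcdh gene that rose: it had 18.7, 27.1 and 30.1 CPM in EGFP-positive libraries, against 13.3, 15.2 and 14.4 CPM in EGFP-negative libraries (log2 fold change 0.81 ± 0.20, SE, adjusted p = 0.0228, edgeR). Cdh26, a cadherin known from epithelia, was low throughout, at 2.54, 1.51 and 2.35 CPM in EGFP-positive libraries, against 0.238, 0.685 and 0.421 CPM in EGFP-negative libraries (2.21 ± 0.49, adjusted p = 0.0152). Neither gene's groups overlap. Cdh19, a type II cadherin known from nerve glia, had 5.52, 16.4 and 19.5 CPM in EGFP-positive libraries, against 3.78, 4.34 and 6.80 CPM in EGFP-negative libraries (1.48 ± 0.42, adjusted p = 0.0419); here the groups overlap, since EGFP-positive library 1 lies inside the range of the negative cells. Astrocyte markers summed to 15149 to 18576 CPM in EGFP-positive libraries, against 7775 to 7912 CPM in EGFP-negative libraries. Of these 6 markers, 5 were called higher and 1, S100b, was called lower. Ependymal markers summed to 142 to 167 CPM in EGFP-positive libraries, against 81.8 to 91.2 CPM in EGFP-negative libraries (4 of 6 called higher). Endothelial markers summed to 14.6 to 30.2 CPM in EGFP-positive libraries, against 1.62 to 5.09 CPM in EGFP-negative libraries. Of these 6, 2 could be tested and 1 was called higher. That gene, Kdr, made up most of the sum, at a mean of 21.5 CPM in EGFP-positive and 2.30 CPM in EGFP-negative libraries. The part of these cells in the cadherin changes was not tested.

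The cadherins of highest level, Cdh2, Cdh4 and Cdh11, were not called, but this depended on the setting. Cdh2 had 149, 269 and 330.5 CPM in EGFP-positive libraries, against 125, 172 and 162 CPM in EGFP-negative libraries (log2 fold change 0.69 ± 0.25, SE, adjusted p = 0.098, edgeR), with overlap. Cdh4 (R-cadherin) had 137, 112 and 126 CPM in EGFP-positive libraries, against 86.4, 94.9 and 103 CPM in EGFP-negative libraries (0.38 ± 0.12, adjusted p = 0.067); its groups do not overlap. Cdh11 and Cdh10, type II cadherins, had log2 fold changes of 0.63 ± 0.25 and 0.50 ± 0.25 with adjusted p of 0.11 and 0.21 (edgeR). DESeq2 called Cdh2 and Cdh4, edgeR with no filter called Cdh2 and Cdh11, and without EGFP-positive library 1 edgeR called Cdh2, Cdh4, Cdh10 and Cdh11, each higher in EGFP-positive cells. Cdh6, Cdh8, Cdh20, Cdh22, Pcdh1, Pcdh8, Pcdh10 and Pcdh20 also missed the threshold, with adjusted p of 0.228 to 0.766. Over all classes, 9 genes were higher and 10 lower without overlap, a smaller share than the 18.7% and 16.9% of all tested genes.

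The number of cadherin genes called rested on single libraries. It was 29 without EGFP-positive library 1 and 4 without EGFP-positive library 2, and 5, 4 and 6 without EGFP-negative library 1, 2 and 3; in 1 fit of all 12 libraries, which shares the spread between the sorts and tests 18063 genes, it was 2. Pcdh15 and Pcdhgc5 were the genes called under each of the 7 other settings and in each of the 6 edgeR fits without 1 library. Limma-voom lost Pcdhgc5 without EGFP-positive library 2, EGFP-negative library 2 or EGFP-negative library 3, and it called Pcdh15 in all 6. The 10 other genes kept the edgeR call in between 1 (Cdh19) and 5 (Pcdh9 and Pcdh19) of the 6 fits.

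**Figure D2:**
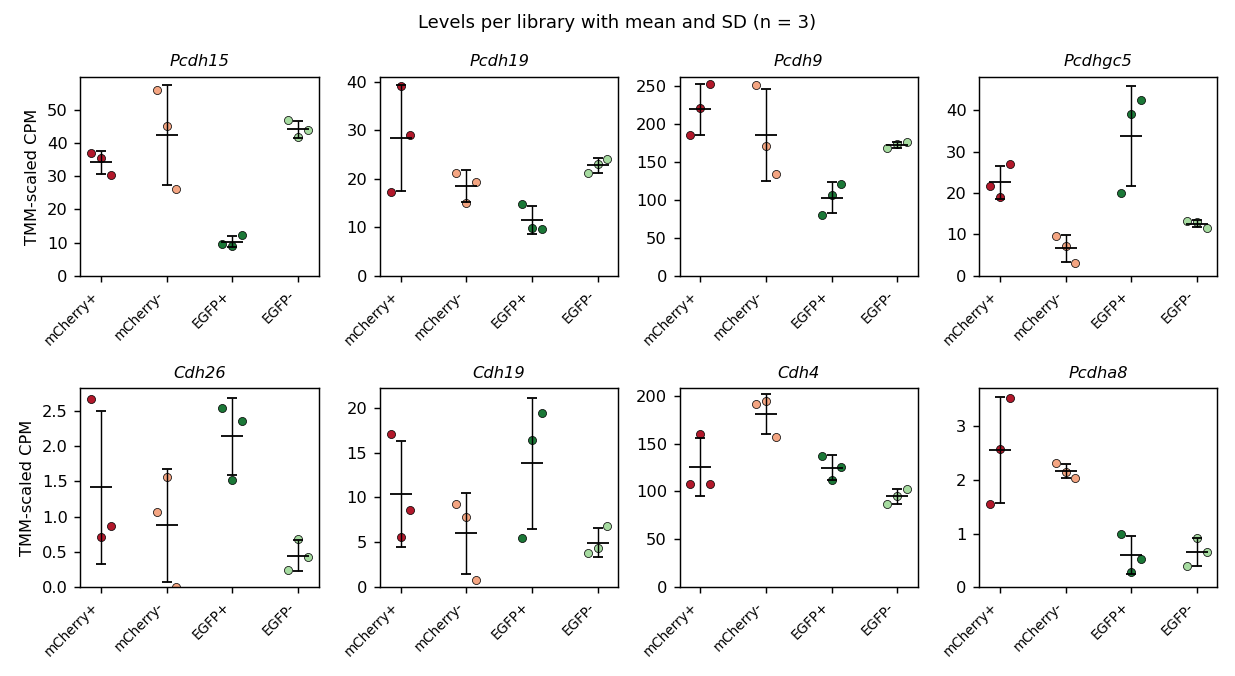
Levels (TMM-scaled CPM, linear axes from 0) of 8 cadherin genes in each library of the 4 groups, with the mean and SD of 3 libraries as horizontal bars. Pcdh15 is lower in EGFP-positive than in EGFP-negative libraries without overlap but overlaps in the mCherry sort, whereas Pcdhgc5 is higher in the reporter-positive libraries of both sorts.

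Promoter sequences are shown for called genes outside the clusters for which a sequence was at hand. Pcdh15 and Pcdh19 had the largest falls in EGFP-positive cells, and Cdh26 and Pcdh18 rose there, so that genes moving in opposite directions can be read side by side. Cdh19 also rose, but no promoter sequence was at hand for it. RefSeq windows (GRCm38.p6, 250 bases before to 50 after a transcription start) were at hand for 22 of 90 member symbols, none in the clusters. Capitals mark ACAANG on either strand (CNTTGT on the other), the core letters bound by Sox factors, of which Sox10 was among the oligodendrocyte-lineage markers that fell.
Pcdh15 (chr10:73821617-73821916, + strand): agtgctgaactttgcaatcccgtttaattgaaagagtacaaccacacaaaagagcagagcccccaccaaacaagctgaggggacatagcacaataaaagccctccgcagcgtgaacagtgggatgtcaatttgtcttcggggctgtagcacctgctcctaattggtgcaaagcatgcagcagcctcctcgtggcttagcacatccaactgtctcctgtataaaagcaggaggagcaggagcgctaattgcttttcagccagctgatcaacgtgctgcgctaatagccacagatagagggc
Pcdh19 (chrX:133688944-133689243, - strand): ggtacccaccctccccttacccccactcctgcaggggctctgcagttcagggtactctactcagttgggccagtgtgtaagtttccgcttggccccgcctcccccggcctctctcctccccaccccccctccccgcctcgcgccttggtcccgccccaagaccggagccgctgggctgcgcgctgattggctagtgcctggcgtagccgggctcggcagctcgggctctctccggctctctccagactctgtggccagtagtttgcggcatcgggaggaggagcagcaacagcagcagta
Cdh26 (chr2:178430265-178430564, + strand): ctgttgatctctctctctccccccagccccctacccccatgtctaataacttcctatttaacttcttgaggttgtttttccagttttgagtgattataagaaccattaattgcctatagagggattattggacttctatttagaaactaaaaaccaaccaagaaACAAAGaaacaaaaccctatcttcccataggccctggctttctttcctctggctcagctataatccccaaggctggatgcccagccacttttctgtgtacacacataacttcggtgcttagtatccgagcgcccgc
Pcdh18 (chr3:49757267-49757566, - strand): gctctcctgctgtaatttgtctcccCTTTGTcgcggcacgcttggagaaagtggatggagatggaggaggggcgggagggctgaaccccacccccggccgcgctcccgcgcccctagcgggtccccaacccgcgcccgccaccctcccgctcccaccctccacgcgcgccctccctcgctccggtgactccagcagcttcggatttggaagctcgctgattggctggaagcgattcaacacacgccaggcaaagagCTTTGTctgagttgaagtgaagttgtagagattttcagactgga
ACAANG occurred 0 times in the Pcdh15 and Pcdh19 windows, 1 time in the Cdh26 window and 2 times in the Pcdh18 window. It was held by 7 of 15 Cdh windows and 5 of 10 Pcdh windows, against 41.2% of all 32851 windows. The Pcdh15 window belongs to a RefSeq start inside the annotated gene and not at its 5′ end, and other starts of these genes were not searched.

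The comparison of mCherry-positive with mCherry-negative cells asks the same of Hcrt-reporter cells. No cadherin gene passed the test here: 0 of 82 tested genes were called (edgeR), against 1.20% of 17369 genes tested (0.541% higher and 0.656% lower), and 7 had an unadjusted p under 0.05, namely Cdh6, Cdh12, Cdh18, Cdh4, Pcdh17, Pcdhb9 and Pcdhgc5. For all genes that share was 18.6%. DESeq2, limma-voom, an edgeR fit with no filter and an edgeR fit with a minimum count of 30 each called 1 gene, Pcdhgc5. In 1 fit of all 12 libraries, with 18063 genes tested, 3 were called, Cdh1, Cdh6 and Pcdhgc5. Replicates varied more in this sort, with a common coefficient of variation of 0.382 for the mCherry sort and 0.189 for the EGFP sort.

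Pcdhgc5 came nearest. It had 21.7, 19.0 and 27.0 CPM in mCherry-positive libraries, against 9.56, 7.16 and 3.18 CPM in mCherry-negative libraries, without overlap. Its log2 fold change was 1.77 ± 0.39 (SE, adjusted p = 0.063, edgeR), and the adjusted p ran from 0.000263 (DESeq2) to 0.214 (edgeR without mCherry-positive library 3) over the alternatives.

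The other genes with a small unadjusted p differed in direction. Cdh6 (K-cadherin) had 15.9, 18.7 and 21.4 CPM in mCherry-positive libraries, against 34.7, 30.2 and 24.1 CPM in mCherry-negative libraries, without overlap (log2 fold change -0.66 ± 0.24, SE, adjusted p = 0.18, edgeR). Cdh4 had 107, 160.1 and 108 CPM in mCherry-positive libraries, against 192, 194 and 157 CPM in mCherry-negative libraries, where mCherry-positive library 2 overlaps (-0.52 ± 0.21, adjusted p = 0.21). Pcdh17 had 48.1, 95.2 and 74.8 CPM in mCherry-positive libraries, against 53.3, 44.4 and 49.3 CPM in mCherry-negative libraries (0.58 ± 0.25, adjusted p = 0.25). Pcdhb9 had 17.3, 12.5 and 13.7 CPM in mCherry-positive libraries, against 18.6, 29.3 and 21.2 CPM in mCherry-negative libraries, without overlap. Its log2 fold change was -0.66 ± 0.27 (SE, adjusted p = 0.23, edgeR).

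Cdh12, a type II cadherin of brain, was at 1.27, 9.59 and 6.58 CPM in mCherry-positive libraries, against 1.38, 2.21 and 1.13 CPM in mCherry-negative libraries (log2 fold change 1.88 ± 0.69, SE, adjusted p = 0.19, edgeR). The libraries high in Cdh12, mCherry-positive 2 and 3, are those where pituitary markers summed to 2191 and 4959 CPM, against 8.98 CPM in mCherry-positive library 1; whether the signals share a source was not tested. Cdh18 was at 1.23, 1.48 and 1.12 CPM in mCherry-positive libraries, against 0.257, 0.614 and 0.0454 CPM in mCherry-negative libraries (2.02 ± 0.89, adjusted p = 0.26). Cdh2, the most abundant cadherin by reads, had 173, 181 and 170.0 CPM in mCherry-positive libraries, against 227, 196 and 169 CPM in mCherry-negative libraries (adjusted p = 0.64). Its ranges overlap, as do those of Pcdh15, at 36.9, 35.5 and 30.3 CPM in mCherry-positive libraries, against 55.9, 45.1 and 26.1 CPM in mCherry-negative libraries (adjusted p = 0.59).

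Of the other genes outside the clusters with a mean of at least 10 CPM, Cdh11 was higher without overlap, at 139, 111 and 124 CPM in mCherry-positive libraries, against 105, 96.8 and 39.2 CPM in mCherry-negative libraries (log2 fold change 0.64 ± 0.32, SE, adjusted p = 0.32, edgeR). Cdh8, Cdh10, Cdh13, Cdh20, Cdh22, Pcdh1, Pcdh7, Pcdh8, Pcdh9, Pcdh10, Pcdh18, Pcdh19 and Pcdh20 had adjusted p of 0.306 to 0.980. Over all classes 7 tested genes were higher and 4 lower without overlap, a smaller share than the 11.8% and 14.0% of all tested genes. Dividing-cell markers summed to 166 to 267 CPM in mCherry-positive libraries, against 466 to 635 CPM in mCherry-negative libraries (4 of 6 called lower). Astrocyte markers summed to 8162 to 11387 CPM in mCherry-positive libraries, against 4315 to 7669 CPM in mCherry-negative libraries (1 of 6 called higher). The part of these cells in the cadherin values was not tested.

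**Figure D3:**
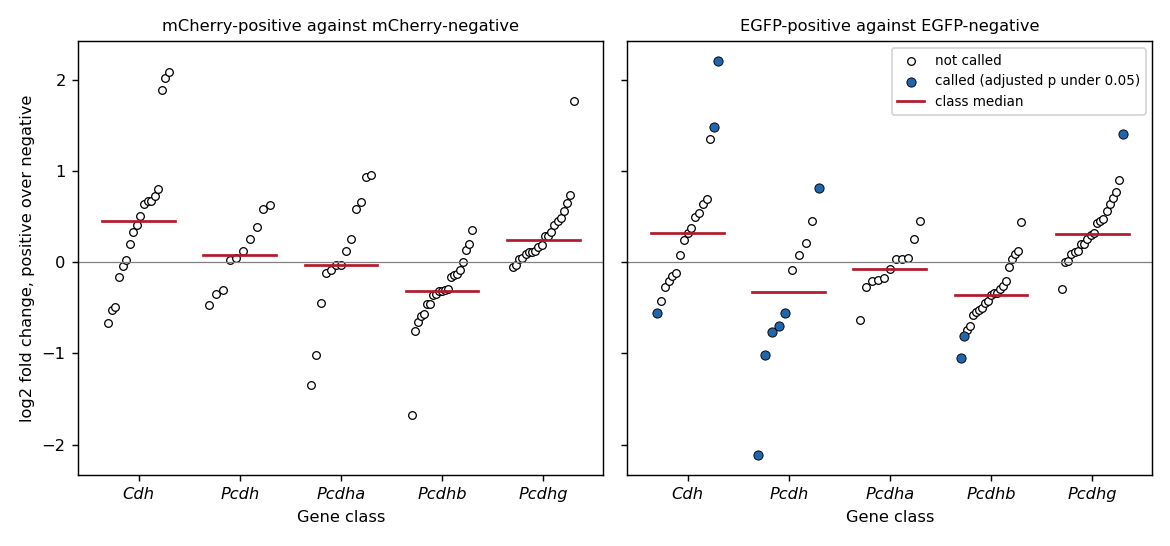
Log2 fold change, positive over negative cells, of every tested cadherin gene by class in the mCherry sort (left) and the EGFP sort (right); filled points were called at an adjusted p under 0.05 and red lines are class medians. Pcdhb medians lie below 0 in both sorts (-0.31 and -0.35), and Pcdhg medians above 0 (0.24 and 0.31).

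In the clusters, few genes were called, but the classes lay on opposite sides of 0 in both sorts. Among 21 tested Pcdhb genes, 17 had a log2 fold change below 0 in the mCherry sort and 17 in the EGFP sort, with medians of -0.31 and -0.35. Among 20 tested Pcdhg genes, 18 were above 0 in the mCherry sort and 19 in the EGFP sort, with medians of 0.24 and 0.31. Over all genes the medians were 0.02 and -0.01, with 51.4% and 49.2% above 0. Genes of 1 cluster share a chromosomal region and, for Pcdhg, exons, and these counts carry no test. Under the alternatives the Pcdhb medians kept their sign (-0.41 to -0.25 in the mCherry sort and -0.45 to -0.21 in the EGFP sort), and so did the Pcdhg medians (0.11 to 0.35 and 0.20 to 0.48). The Pcdha medians were -0.03 in the mCherry sort and -0.08 in the EGFP sort and changed sign under some alternatives.

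Within each library, the share that the Pcdhb or the Pcdhg cluster took of the summed level of all 3 separated the groups. Its own summed level did not always. Pcdha shares overlapped in both sorts. They were 6.21% to 8.95% in mCherry-positive and 6.37% to 9.15% in mCherry-negative libraries. In the EGFP sort they were 4.82% to 6.27% in EGFP-positive and 5.92% to 7.44% in EGFP-negative libraries. Pcdhb genes took 28.4%, 32.3% and 24.3% of the summed level of the 3 clusters in mCherry-positive libraries, against 33.1%, 40.2% and 33.4% in mCherry-negative libraries. They took 24.4%, 22.4% and 21.2% in EGFP-positive libraries, against 29.9%, 30.8% and 31.5% in EGFP-negative libraries. Neither sort has an overlap between its groups.

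Pcdhg genes took 65.4%, 61.3% and 66.7% in mCherry-positive libraries, against 60.5%, 52.8% and 57.5% in mCherry-negative libraries. Their share was 69.3%, 72.8% and 73.1% in EGFP-positive libraries, against 63.4%, 63.2% and 61.0% in EGFP-negative libraries. The 3 shares of a library sum to 100% by construction, and Pcdha took only 4.82% to 9.15%. A lower Pcdhb share and a higher Pcdhg share are therefore not independent of each other, although the Pcdha share can take up part of a change. In absolute level, Pcdhb genes summed to 173 ± 12 CPM in mCherry-positive and 209 ± 20 CPM in mCherry-negative libraries, and to 142 ± 26 CPM in EGFP-positive and 171 ± 15 CPM in EGFP-negative libraries (SD, n = 3 each). Pcdhg genes summed to 397 ± 47 CPM in mCherry-positive and 339 ± 66 CPM in mCherry-negative libraries, and to 456 ± 121 CPM in EGFP-positive and 347 ± 25 CPM in EGFP-negative libraries, where the differences are close to the spread of the wider group. The Pcdhg sums overlap in both sorts, and EGFP-positive library 1, at 318 CPM, lies below all EGFP-negative libraries, at 326 to 374 CPM.

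**Figure D4:**
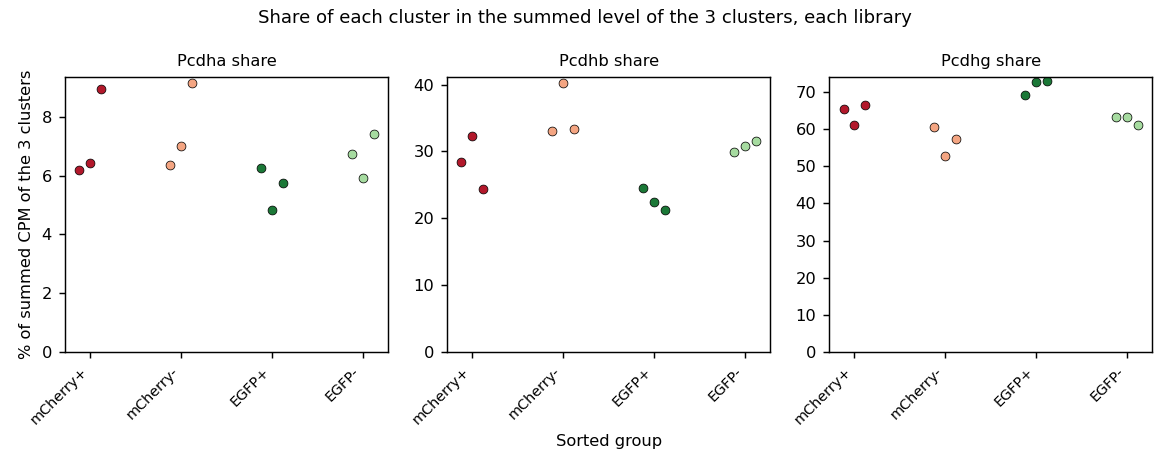
Share of the Pcdha, Pcdhb and Pcdhg genes in the summed TMM-scaled CPM of the 3 clusters (per cent, axes from 0); each point is 1 library. The Pcdhb share is lower, and the Pcdhg share higher, in reporter-positive than in reporter-negative libraries of either sort, without overlap.

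In the Pcdha and Pcdhg clusters, C-type genes at the end held a large share of the reads, but not each of them did. Pcdhac1, a C-type gene of the Pcdha cluster, had 534 reads over the 12 libraries, against 4762 for Pcdhac2. Pcdhgc3, Pcdhgc4 and Pcdhgc5 together took 29.99% to 41.4% of Pcdhg reads in a library. Pcdhac2 took 16.4% to 48.8% of Pcdha reads in a library, with mCherry-positive library 2 at the low end, and was the Pcdha gene above 10 CPM. Pcdhgc5 took 5.51%, 5.41% and 6.06% of Pcdhg reads in mCherry-positive libraries, against 2.32%, 2.52% and 0.987% in mCherry-negative libraries. In the EGFP sort it took 6.28%, 7.77% and 7.75% in EGFP-positive libraries, against 4.03%, 3.48% and 3.41% in EGFP-negative libraries, so its share of the cluster was higher in the reporter-positive libraries of each sort, without overlap. In the Pcdhb cluster the most abundant genes were Pcdhb7 and Pcdhb20. Pcdhb7 averaged 20.1 ± 2.3 CPM in mCherry-positive, 20.2 ± 8.3 CPM in mCherry-negative, 19.9 ± 2.9 CPM in EGFP-positive and 19.3 ± 2.3 CPM in EGFP-negative libraries (SD, n = 3 each), which differ by less than their spread.

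**Figure D5:**
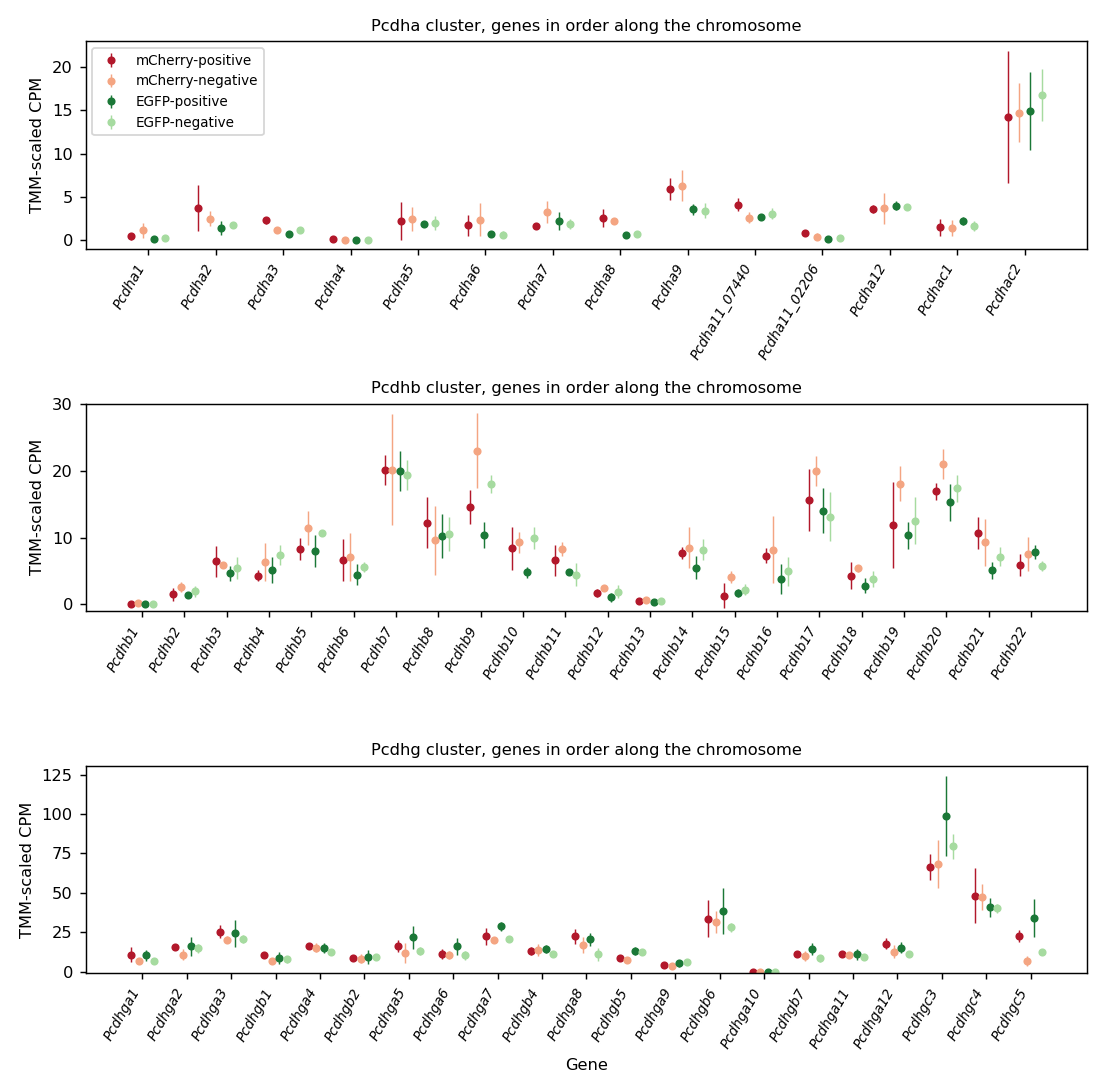
Mean TMM-scaled CPM ± SD (n = 3) of each gene of the Pcdha, Pcdhb and Pcdhg clusters in chromosomal order, for the 4 groups; Pcdha11_07440 and Pcdha11_02206 are the 2 identifiers that share a symbol. Pcdhac2 stands above the other Pcdha genes in every group, Pcdhgc3 above the other Pcdhg genes, and Pcdhb levels follow no gradient along the cluster.

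Whether the effect of the reporter differed between the sorts was tested as the mCherry effect minus the EGFP effect. Pcdh15 was called: its positive-over-negative log2 fold change was higher in the mCherry sort by 1.79 ± 0.34 (SE, adjusted p = 0.0234, edgeR). Fitted apart, its fold change was -0.30 in the mCherry sort and -2.12 in the EGFP sort. That is 1 of 83 cadherin genes tested, or 1.20%, beside 1.44% of all 18063 genes (0.886% higher and 0.559% lower); 12 had an unadjusted p under 0.05, beside 15.2% of all genes. It kept its call under 6 of 6 other settings and in 7 of 12 edgeR fits without 1 library, with differences of 1.53 to 2.02. It lost it (adjusted p up to 0.086) without mCherry-negative library 2, EGFP-positive library 2, and EGFP-negative library 1, 2 or 3. Oligodendrocyte-lineage markers beside it were 3157 to 4865 CPM in mCherry-positive and 3466 to 4138 CPM in mCherry-negative libraries, which overlap, and 4 of 6 were called in the same test; their part was not tested.

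Genes just short of the threshold in that test were Pcdh19 (1.62 ± 0.39, adjusted p = 0.059), Cdh4 (-0.93 ± 0.24, adjusted p = 0.079), Pcdh17 (1.11 ± 0.29, adjusted p = 0.079), Cdh13 (0.93 ± 0.25, adjusted p = 0.082) and Cdh6 (-1.01 ± 0.28, adjusted p = 0.093, all edgeR). Pcdh19, for one, had 17.2, 39.1 and 29.1 CPM in mCherry-positive libraries, against 21.2, 14.9 and 19.4 CPM in mCherry-negative libraries. DESeq2 called 8 genes, Cdh13, Cdh18, Cdh4, Cdh6, Pcdh15, Pcdh17, Pcdh19 and Pcdh9. For Pcdhgc5 the difference was 0.33 ± 0.48 (adjusted p = 0.80), so the fold changes of 1.77 in the mCherry sort and 1.41 in the EGFP sort were not shown to differ.

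The sorts themselves were compared as the mean of the mCherry groups minus the mean of the EGFP groups. Virus, reporter, RNA input and any batch differ with the sort and cannot be told apart. Markers differed too: 6 of 6 of dividing cells and 5 of 6 of ependymal cells were lower in the mCherry sort, and 5 of 6 of microglia higher. Of 83 cadherin genes tested, 13 were called (edgeR), 10 higher and 3 lower in the mCherry sort. That is 15.7%, beside 18.5% of all genes, of which 10.5% were higher and 8.04% lower. An unadjusted p under 0.05 was found for 27 of the 83, against 32.4% of all genes. Higher were Cdh4, Cdh12, Cdh13, Pcdh7, Pcdh8, Pcdh9, Pcdh15, Pcdha8, Pcdha9 and Pcdhb21; lower were Cdh1, Pcdhgb5 and Pcdhgc5. The count was 8 without EGFP-positive library 2 and 8 without EGFP-negative library 1.

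Pcdha8 was among the genes that separated the sorts without overlap, though on 7 to 24 reads per library in the EGFP sort. It had 1.56, 2.58 and 3.53 CPM in mCherry-positive and 2.31, 2.15 and 2.04 CPM in mCherry-negative libraries, against 0.992, 0.279 and 0.526 CPM in EGFP-positive and 0.397, 0.913 and 0.662 CPM in EGFP-negative libraries. All 6 libraries of the mCherry sort lie above all 6 of the EGFP sort (log2 difference 1.92 ± 0.39, SE, adjusted p = 0.0041, edgeR), and the call held in 12 of 12 edgeR fits without 1 library. Its neighbour Pcdha9 was also higher without overlap, at 4.94 to 8.30 CPM in the mCherry sort, against 2.82 to 4.41 CPM in the EGFP sort (0.80 ± 0.23, adjusted p = 0.0239); its call was lost with no filter and held in 8 of 12 edgeR fits without 1 library. Such a lack of overlap, higher in the mCherry sort, held for 2 cadherin genes and for 3.80% of all genes.

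Pcdhgb5 was the cadherin gene without overlap in the other direction, at 5.13 to 9.53 CPM in the mCherry sort, against 10.1 to 15.5 CPM in the EGFP sort (log2 difference -0.69 ± 0.18, SE, adjusted p = 0.01665, edgeR), beside 1.84% of all genes. Pcdh8 (arcadlin), whose transcript is induced by neuronal activity in rat hippocampus, averaged 55.3 ± 18.3 CPM in mCherry-positive and 77.1 ± 9.2 CPM in mCherry-negative libraries, against 41.2 ± 1.1 CPM in EGFP-positive and 43.4 ± 6.2 CPM in EGFP-negative libraries (SD, n = 3 each; 0.63 ± 0.15, adjusted p = 0.012). For Pcdh15, Pcdh9, Pcdh7 and Cdh13 the sort differences were 0.83 ± 0.17, 0.60 ± 0.15, 0.54 ± 0.13 and 0.54 ± 0.12, with adjusted p of 0.0037 to 0.0136. Their EGFP-positive libraries are the low ones, as given above, and the EGFP-negative libraries lie within or near the range of the mCherry sort.

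Pcdhb21 had 6.17 to 13.3 CPM in the mCherry sort, against 3.72 to 7.999 CPM in the EGFP sort (log2 difference 0.73 ± 0.22, SE, adjusted p = 0.036, edgeR), a call that held in 3 of 12 edgeR fits without 1 library (adjusted p up to 0.103), and Cdh4 differed by 0.47 ± 0.12 (adjusted p = 0.0159), with its lowest libraries among the EGFP-negative cells. Pcdhgc5 was lower in the mCherry sort (-0.75 ± 0.24, adjusted p = 0.0455), where the mCherry-negative libraries at 3.18 to 9.56 CPM were the lowest of all; that call too held in 3 of 12 such fits.

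Cdh12 was higher in the mCherry sort (log2 difference 1.98 ± 0.46, SE, adjusted p = 0.0085, edgeR). Besides the high mCherry-positive libraries 2 and 3, its mCherry-negative libraries at 1.13 to 2.21 CPM also lay above the EGFP-negative ones at 0.477 to 0.761 CPM. EGFP-positive library 3, at 1.51 CPM, lay within the mCherry-negative range, so the sorts overlap. The call held in 12 of 12 edgeR fits without 1 library, while limma-voom did not call it (adjusted p = 0.0711). Cdh1, E-cadherin of epithelia, had 13, 0 and 29 reads in mCherry-positive and 0 reads in all 3 mCherry-negative libraries, against 2, 14 and 23 reads in EGFP-positive and 7, 12 and 20 reads in EGFP-negative libraries. A count of 0 allows 0.0921 to 0.138 CPM in those libraries (3 counts), and no fold change is given. The Cdh1 call (adjusted p = 0.0425) held in 2 of 12 edgeR fits without 1 library. Epithelial markers summed to 3.98 to 84.9 CPM in mCherry-positive libraries, against 3.24 to 9.49 CPM in mCherry-negative libraries, and their part was not tested.

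Partners of cadherins moved in few members of each list. Of 11 tested catenins, the cytoplasmic links to actin, 2 rose and 0 fell in EGFP-positive cells: Ctnna1, alpha-catenin, averaged 329 ± 71 CPM in EGFP-positive and 168 ± 17 CPM in EGFP-negative libraries (SD, n = 3 each; log2 fold change 0.95 ± 0.16, SE, adjusted p = 0.0048, edgeR), and the plakophilin Pkp2 changed by 0.87 ± 0.22 (adjusted p = 0.0239). Of 17 tested genes of the wider cadherin superfamily 3 were lower and 0 higher in EGFP-positive cells, namely Celsr3, a cadherin of axon guidance (-1.19 ± 0.18, adjusted p = 0.0030), the calsyntenin Clstn3 (-0.80 ± 0.16) and Dchs1, the ligand of Fat cadherins (-0.51 ± 0.12).

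Of 13 partners of protocadherin tails, 3 were lower in EGFP-positive cells: Wasf1 and Cyfip2 of the WAVE actin complex, at -1.13 ± 0.14 (adjusted p = 0.0011) and -1.15 ± 0.20 (adjusted p = 0.0058), and the kinase Fyn at -0.71 ± 0.10 (adjusted p = 0.0026, all edgeR). Ptk2b, a kinase also bound by these tails, was the 1 gene of the 7 lists called in the mCherry sort, at 8.94 ± 4.01 CPM in mCherry-positive and 1.58 ± 0.53 CPM in mCherry-negative libraries (2.51 ± 0.50, adjusted p = 0.0497, edgeR). That call was lost without mCherry-negative library 1, mCherry-negative library 2 or mCherry-positive library 3, where edgeR called 0 genes in all. Cyfip2 was also called for the difference between the sorts' effects (1.64 ± 0.30, adjusted p = 0.0227). Of 10 nectins and related genes, Cadm3 (-1.34 ± 0.28) and Pvr (-0.95 ± 0.22) were lower in EGFP-positive cells.

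Of 13 tested cadherin-shedding enzymes, the metalloproteases Mmp14 (0.86 ± 0.10, adjusted p = 7.6e-04) and Adam17 (0.90 ± 0.23, adjusted p = 0.0286) were higher in EGFP-positive cells. Of 13 regulators of the protocadherin clusters, among them Ctcf and the cohesin subunits that loop promoters to enhancers, 1 was lower, the zinc finger protein Wiz (-0.52 ± 0.14, adjusted p = 0.0345, edgeR). Of 4 tested transcription factors that switch cadherin use in migrating cells, Prrx1 (0.79 ± 0.16) and Snai2 (1.39 ± 0.39) were higher in EGFP-positive cells. All genes were called at 16.1% in that comparison, and these short lists carry no test. Between the sorts, where 10.5% of all genes were higher and 8.04% lower in the mCherry sort, 1 of 11 catenins was higher and 1 lower, 1 of 13 cluster regulators was higher and 2 lower, 1 of 13 shedding enzymes was lower and 0 higher, and 2 of 6 switch factors were lower and 0 higher. Also there, 4 of 10 nectins and related genes were higher in the mCherry sort and 0 lower, led by Cadm2 (log2 difference 1.39 ± 0.15, SE) and Nectin3 (1.46 ± 0.17, both edgeR). Of 13 tail partners 4 were higher and 2 lower there, led by Nckap1 of the WAVE complex (1.48 ± 0.13, higher), and of 19 genes of the wider superfamily 4 were higher and 2 lower, led by Clstn1 (1.83 ± 0.18, higher) and Pcdh11x, a delta-protocadherin whose symbol falls outside the rule (1.04 ± 0.20, higher).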

How the data were processed

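RNA of 12 libraries in 4 groups of 3 was sequenced, and the deposited files hold raw counts of reads per Ensembl gene, not normalized by the authors. The submitters' processing notes name cutadapt 1.8, STAR 2.5.2b, HTSeq 0.6.1 and GRCm38; settings, annotation release and strand are not given in the sources used here. Reads in no gene (31.4% to 38.2% of those counted) stayed out of library sizes. GENCODE M21 gave symbols and exons for 48349 of 48709 identifiers; 360 had none.

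Each sort was fitted on its own 6 libraries, and the difference of effects and the sort contrast on all 12, with edgeR 4.0.16 (R 4.3.3): TMM factors, filterByExpr (minimum count 10, minimum total 15), quasi-likelihood test, Benjamini-Hochberg adjustment over all genes tested, called under 0.05. As a check of the code, fits were run on simulated counts with the same spread for all genes and libraries of a comparison. The spread of the data differs between the sorts, so that check does not give the error rate in these data. SE is the log2 fold change divided by the root of F. DESeq2 1.42.0, limma 3.58.1 (voom), other filters and scaling, a replicate block and leaving out each library were alternatives; class medians were added after seeing the data.

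Named are members called in any comparison, those outside the clusters with a mean of at least 10 CPM, and the 2 most abundant of each cluster; genes named beside these were chosen after their values were seen. Of the related lists, up to 3 called genes of smallest adjusted p per comparison are named. The members and lists were chosen with earlier results of these data known. Since no label names separate cultures or animals, the spread that the p-values rest on may be that of technical repeats. Between replicates the chi-square per degree of freedom was 6.54 to 97.0, above counting error, so no library was counted as a copy. Limits at 0 reads (3 counts) cover counting error only, because no molecular identifiers tell PCR copies from molecules. Deviations of same-numbered positive and negative libraries were weakly correlated (-0.02 to 0.13), and no label states a pairing, so the main fits have no block. Whether the libraries are paired is not known.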

Additional observations from a re-analysis of the deposited data

Results flagged for a closer look

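The reporter effect on Pcdh15 differed between the sorts by a test of the difference itself. The mCherry effect minus the EGFP effect was 1.79 ± 0.34 on the log2 scale (SE, adjusted p = 0.0234, edgeR's quasi-likelihood test on 12 libraries). Pcdh15 averaged 34.2 ± 3.5 CPM in mCherry-positive and 42.4 ± 15.1 CPM in mCherry-negative libraries, and 10.3 ± 1.7 CPM in EGFP-positive and 44.2 ± 2.6 CPM in EGFP-negative libraries (SD, n = 3 each). The EGFP-positive group is thus the one that stands apart, and the groups of the mCherry sort overlap.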

How the results depend on the processing

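Each library, the scaling, the filter, the test and the libraries fitted together were varied in turn. In the mCherry sort, the 0 cadherin genes called became 1 with no filter, with a minimum count of 30, with DESeq2 and with limma-voom, and 3 with 1 fit of 12 libraries; without single libraries edgeR called 0 (4 to 9 at an unadjusted p under 0.05) and DESeq2 1 to 4. The 208 genes called in all became 778 with no filter, 1476 with DESeq2 and 1712 with 1 fit of 12 libraries, and 0 to 212 without single libraries, with 0 for mCherry-negative 1, mCherry-negative 2 and mCherry-positive 3 (DESeq2 1766, 1083 and 824 there, limma-voom 0, and 3673, 2764 and 2439 at an unadjusted p under 0.05).

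In the EGFP sort, the 12 cadherin genes became 2 with 1 fit of 12 libraries and 4 to 29 without single libraries, and the 2622 genes became 801 and 1137 to 5244. For the difference of effects, the 1 cadherin gene became 5 with no filter, 2 with a minimum count of 30, 8 with DESeq2 and 0 to 4 without single libraries; the 261 genes became 675 with no filter, 894 with DESeq2 and 27 to 591. In the 5 fits that called 0 cadherin genes, 10 to 13 had an unadjusted p under 0.05, DESeq2 called 4 to 6 and limma-voom 0. For the sort contrast the 13 became 8 to 19 without single libraries.

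The labels do not say whether replicate numbers pair the libraries. Same-number correlations of deviations from the group mean were 0.13, -0.02 and 0.02 in the mCherry sort. In the EGFP sort they were 0.11, -0.0046 and 0.03, and not every library correlated best with its own number. With 3 libraries per group such correlations cannot decide whether the libraries are paired. The replicate block raised the genes called from 2622 to 3409 in the EGFP sort and from 208 to 343 in the mCherry sort. With the replicate block, 19 cadherin genes were called in the EGFP sort (Cdh2, Cdh4 and Cdh11 among them), 0 in the mCherry sort (343 genes in all), 1 for the difference and 11 for the sort contrast (without Cdh1, Pcdhb21 and Pcdhgc5).

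Among uncalled genes, signs reversed for the Cdh26 log2 fold change, mCherry-positive against mCherry-negative, without mCherry-positive library 1 (-0.16; -0.16 to 1.41 without single libraries), for the Pcdh20 log2 fold change, mCherry-positive against mCherry-negative, with the replicate block (0.019) and without mCherry-negative library 2 (0.28; -0.81 to 0.28), and for the Cdh12 log2 fold change, EGFP-positive against EGFP-negative, without EGFP-positive library 3 (-0.0375; -0.0375 to 0.78); the cause was not tested. No called fold change reversed under the alternatives run. Genes under 10 reads cannot show a difference at this depth.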
